A study of Mus musculus with 5 samples.

Results

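The 10 genes described here encode nuclear receptors that are known from the control of pluripotency or of its exit: Nr5a2, Nr0b1, Esrrb, Nr6a1, Esrra, Nr2f1, Nr2f2, Rara, Rarg and Rxrb. They were taken by name from the 19938 genes with a probe set of a single gene symbol, and the probe set standing for a gene was chosen by its mean level over all 5 arrays, the highest being kept. Each of the 10 had 1 probe set, so that this value left nothing to choose. The genes themselves were proposed with earlier results of these arrays known, so what is given for them is a description.

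RNA was measured on 5 arrays from mouse embryonic stem (ES) cells that carry a Satb1 transgene under tetO, a promoter switched on by doxycycline (DOX). The induced group had 3 arrays (tetO-Satb1 with DOX for 24 h) and the uninduced group had 2 arrays (tetO-Satb1 without DOX, which the labels call control). Both groups carried the transgene, were grown in serum medium with LIF, a cytokine that sustains self-renewal, and were harvested 48 h after passaging. The treatment protocol names irradiated feeder fibroblasts, which the extraction step depletes by settling, and no DOX-treated cells without the transgene were among the samples. Whether replicate arrays stem from separate cultures, or the cells from 1 clone, is not stated in the labels, so p-values measure array-to-array spread that may be technical. Values are log2 levels as the authors deposited them, changes are the induced mean minus the uninduced mean, and the number of arrays limits their precision. A brighter probe set does not mean a more abundant transcript, so levels are compared between arrays and not between genes.

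Nuclear receptors are transcription factors that pair a zinc finger domain for binding DNA with a pocket for a lipid ligand, and most of them recognise the hexamer AGGTCA or repeats of it. Orphan receptors are those for which no physiological ligand was known when they were named, and several of them act on their own as parts of the ES cell network. Retinoid receptors respond to retinoic acid, a derivative of vitamin A that drives ES cells to differentiate, and bind DNA as a pair of a RAR and an RXR protein.

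Satb1 itself had log2 levels of 8.61, 8.79 and 8.68 on the induced arrays, against 4.95 and 5.34 on the uninduced arrays. Markers of ES cells were present in both groups. The mean of 12 markers, among them Pou5f1, Sox2 and Nanog, ran from 9.01 to 9.04 on the induced arrays. On the uninduced arrays it ran from 9.02 to 9.08. Of the 12 genes, 9 had a lower mean and 3 a higher one, against 45.3% and 39.6% of all genes. All induced values were below both uninduced values for Tdgf1 and L1td1, 2 of the 12, against 3.08% of all genes. They were above them for 0 of the 12, against 1.65%. The mean of 23 fibroblast markers was 5.05, 5.07 and 5.09 on the induced arrays and 5.05 on both uninduced arrays, with a higher mean for 13 of the 23 genes and a lower one for 8. Since the RNA came from bulk cultures, fewer cells that express a gene and less RNA per cell cannot be told apart.

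Among the 10 receptors the orphan receptor genes Nr5a2 and Nr0b1 had lower levels in induced cells, by 1.20-fold and 1.19-fold, and the other 8 differed by up to 1.06-fold, the value of Rarg. Neither of the pair passed the test over all genes (limma with Benjamini-Hochberg adjustment, adjusted p = 0.770 for both). In all, 0 of the 10 receptors passed in either direction, where 0.0150% of all genes did. Satb1, with a log2 change of 3.55, did not pass in this fit either (limma adjusted p = 0.229). A missing call in this fit thus does not show that a level was unchanged. At an unadjusted p under 0.05 there were 2 receptors lower and 0 higher (limma), against 1.07% and 0.481% of all genes. The 3 induced values were all below the 2 uninduced values for 2 of the 10, where this held for 3.08% of all genes, and all above them for 0 of the 10, against 1.65% of all genes. A log2 change of -0.2 or lower was found in 2 of the 10, against 1.59% of all genes, and one of 0.2 or higher in 0 of the 10, against 1.16%. In each of these counts the 2 were Nr5a2 and Nr0b1. The median log2 change of the 10 genes was -0.0016 and that of all genes was 0.

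**Figure D1:**
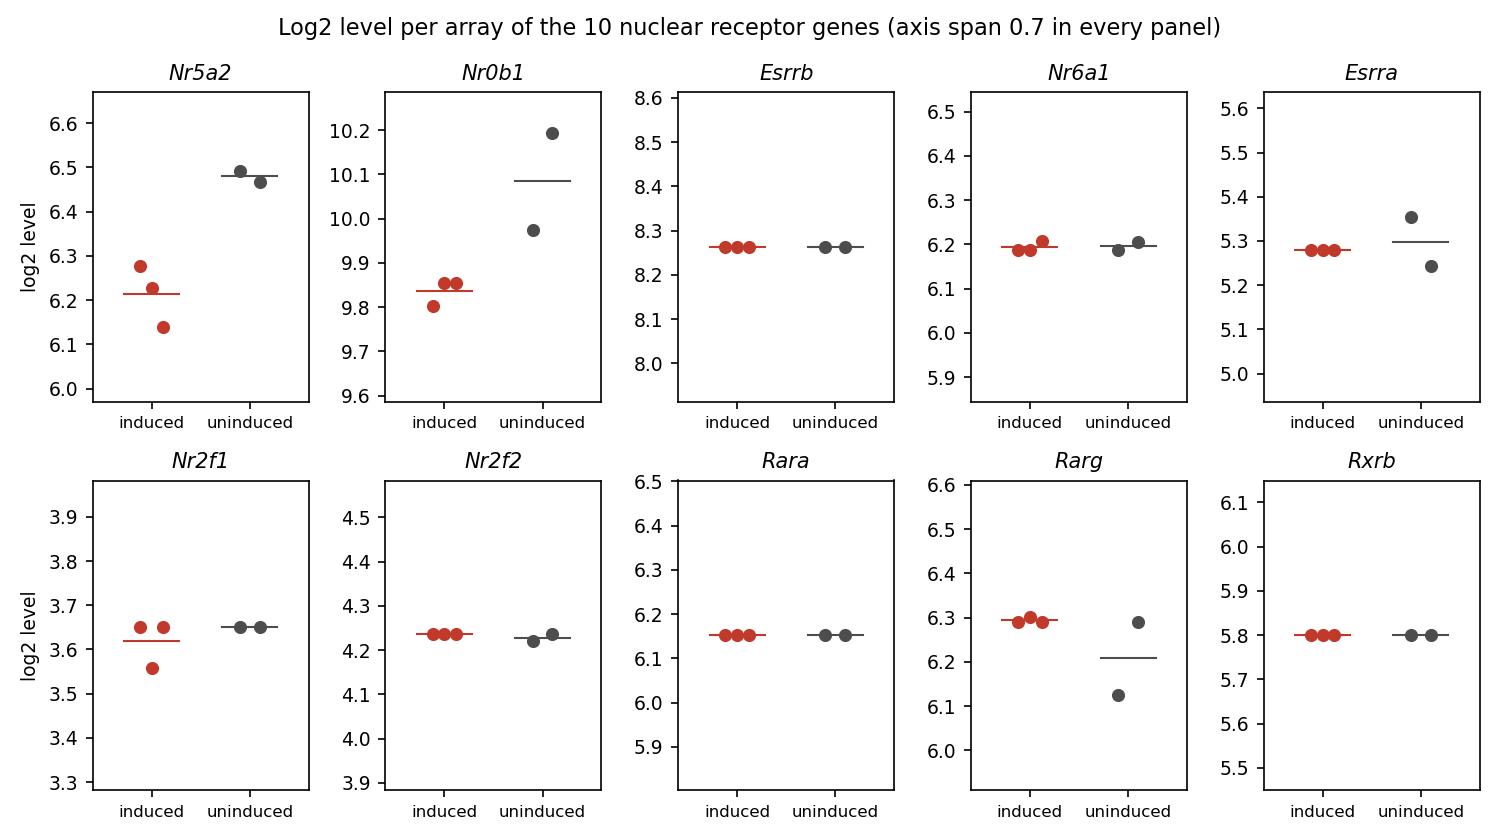
Log2 level (vertical axes, span of 0.7 in each panel) of the 10 nuclear receptor genes on the 3 induced arrays (red, left) and the 2 uninduced arrays (grey, right), with points for arrays and lines for group means. The groups are separate for Nr5a2 and Nr0b1, and Esrrb, Rara and Rxrb sit at 1 value on all 5 arrays.

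Nr5a2 encodes LRH-1, a receptor that binds DNA as a monomer, activates Pou5f1 in ES cells and can stand in for OCT4 in reprogramming. Its log2 level was 6.28, 6.23 and 6.14 on the induced arrays, against 6.49 and 6.47 on the uninduced arrays. The groups did not overlap: the highest induced array lay 0.19 below the lowest uninduced array. The group means were 6.21 ± 0.069 (SD, n = 3) in induced cells and 6.48 ± 0.018 (SD, n = 2) in uninduced cells, a log2 change of -0.27 with a standard error of 0.049. Induced array 3 was the lowest, 1.27-fold below the uninduced mean. The change was between -0.30 and -0.23 with any 1 array left out, and with the fibroblast mean as a covariate it was -0.19. Only induced array 1 shared the uninduced fibroblast mean of 5.05, so the value from that fit is no measure of a fibroblast share.

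Nr0b1 encodes DAX1, an X-linked orphan receptor that lacks the usual zinc finger domain, binds NR5A receptors such as LRH-1 and represses their activity. Its log2 level was 9.80, 9.86 and 9.85 on the induced arrays, against 9.97 and 10.19 on the uninduced arrays. The highest induced array lay 0.12 below the lowest uninduced array, while the uninduced arrays lay 0.22 apart from each other. The means were 9.84 ± 0.030 (SD, n = 3) in induced cells and 10.08 ± 0.16 (SD, n = 2) in uninduced cells, a log2 change of -0.25 with a standard error of 0.079. The size therefore rested on which uninduced array was used: the change was -0.36 without uninduced array 1 and -0.14 without uninduced array 2. With the fibroblast mean as a covariate it was -0.28, under the limit given for Nr5a2. In the fit without uninduced array 1, which called 1097 genes lower, Nr0b1 passed (limma adjusted p = 0.043).

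Exact ties between arrays are frequent in the deposited values and make the spread of tied genes too small. An interval was therefore also computed that combines each gene's own spread with the spread limma estimated from the 1800 genes with 5 distinct values. On that scale the 95% interval of the change, not adjusted for the number of genes, ran from -0.43 to -0.10 for Nr5a2 and from -0.45 to -0.05 for Nr0b1. Neither passed after adjustment over all genes (adjusted p = 1 for both). With this spread 0 of the 10 receptors passed in either direction, where 0.00502% of all genes, Satb1 alone, did. At an unadjusted p under 0.05 there were 2 lower and 0 higher, against 0.772% and 0.301% of all genes.

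**Figure D2:**
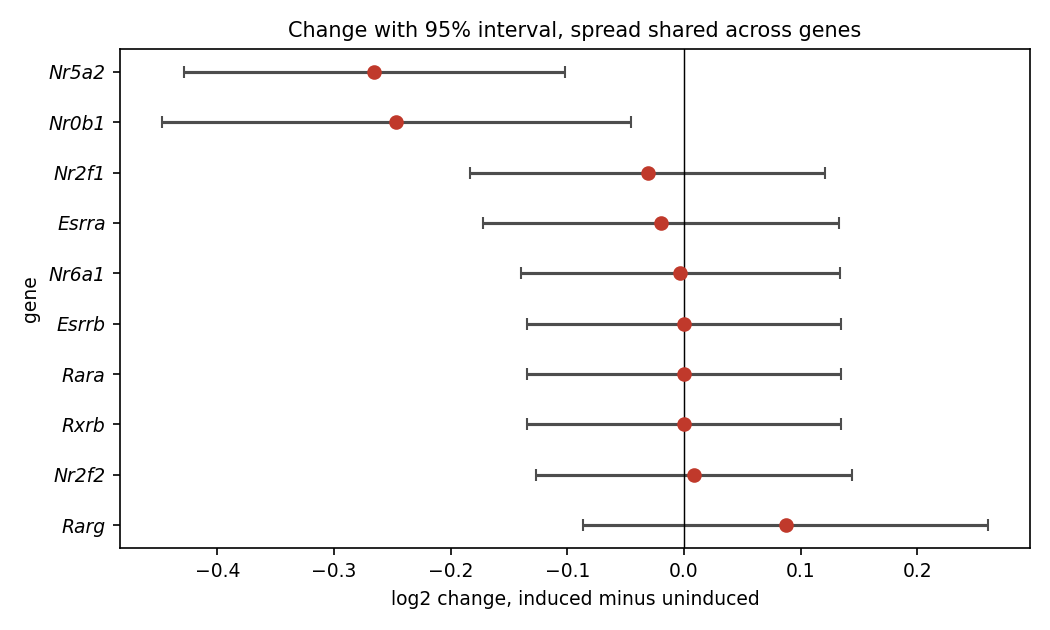
Log2 change (horizontal axis, induced minus uninduced) of the 10 nuclear receptor genes, ordered by change, with points for the estimate and bars for the 95% interval with the prior of genes with 5 distinct values. The bars of Nr5a2 and Nr0b1 lie below 0 and the bars of the other 8 genes include 0.

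The RefSeq promoter windows of both genes hold the receptor hexamer AGGTCA once within the 250 bases before an annotated start. They are shown because these genes had the largest changes among the 10 and because the hexamer is the core motif of the receptor family. Each sequence runs 5′ to 3′ on the strand of its gene, in build GRCm38.p6, with the hexamer in capitals. Nr5a2 is on the minus strand at chr1:136960449-136960698, upstream of the first of 2 annotated starts, and Nr0b1 is on the plus strand at chrX:86191525-86191774, upstream of its only one.
Nr5a2: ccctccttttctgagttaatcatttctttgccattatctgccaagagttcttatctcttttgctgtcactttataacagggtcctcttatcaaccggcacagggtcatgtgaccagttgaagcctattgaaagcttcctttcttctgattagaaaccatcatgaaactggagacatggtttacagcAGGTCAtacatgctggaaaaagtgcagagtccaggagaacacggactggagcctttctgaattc
Nr0b1: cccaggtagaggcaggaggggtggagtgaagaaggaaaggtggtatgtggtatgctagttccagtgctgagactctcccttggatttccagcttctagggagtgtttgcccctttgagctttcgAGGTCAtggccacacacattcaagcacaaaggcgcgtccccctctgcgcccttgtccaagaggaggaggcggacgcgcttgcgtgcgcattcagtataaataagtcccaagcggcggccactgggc
The hexamer begins 64 bases upstream of the start in Nr5a2 and 126 bases upstream in Nr0b1. The second annotated start of Nr5a2 has no match.

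Windows of 300 bases, from 250 before to 50 after a start, were found for all 10 genes, 19 windows in all, and 2 of the 4 windows of Rara overlap for most of their length. The hexamer AGGTCA was searched on both strands. It occurred in 5 of the 19 windows, one each of Nr5a2, Nr0b1, Nr6a1, Rara and Rarg, and in 16.3% of the 32851 windows of all genes. Nr6a1 had 2 matches, at 91 and 45 bases upstream of its second start. The longer motif TCAAGGNCA, which NR5A and estrogen-related receptors bind as monomers, matched once, 233 bases upstream of the fourth start of Rara, and occurred in 1.62% of all windows. The octamer ATGCAAAT, bound by OCT4, and the STAT motif TTCCNGGAA matched in 0 of the 19 windows, against 1.74% and 1.15% of all windows. These motifs overlapped nowhere in the 10 genes. GC content was 42% and 49% in the windows of Nr5a2 and 58.7% in that of Nr0b1, where the median of all windows was 52.7%. A match describes the letters of the window and does not show binding.

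**Figure D3:**
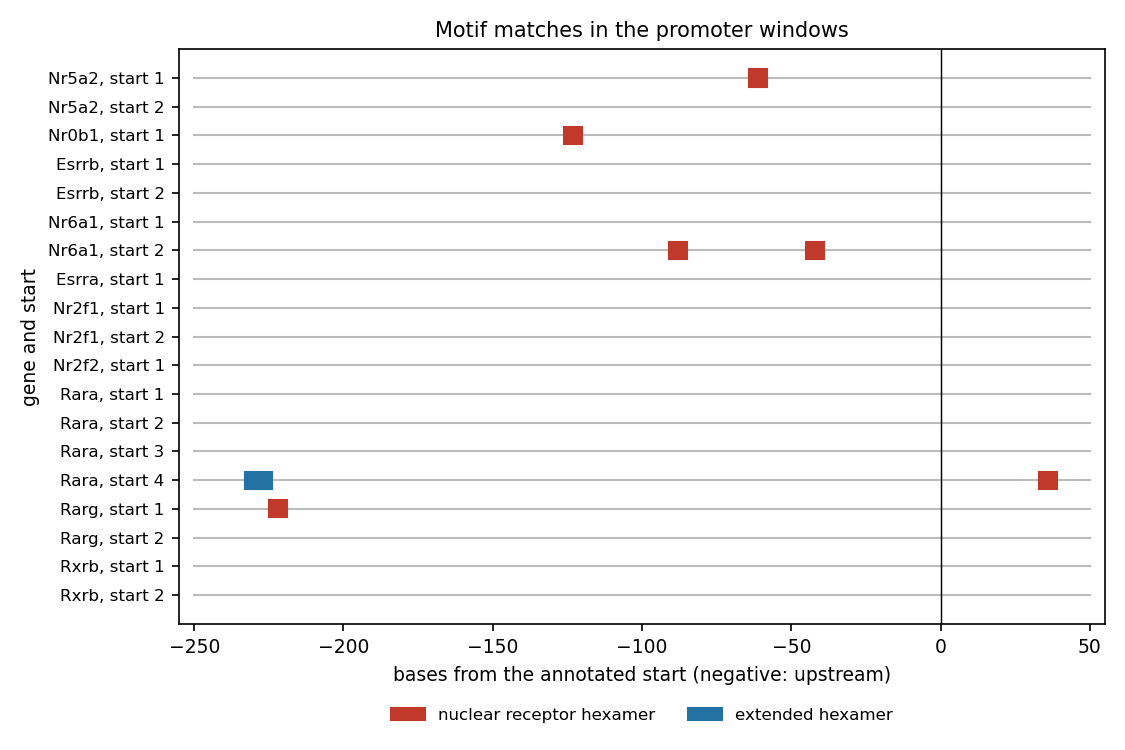
Positions of motif matches in the 19 promoter windows of the 10 genes, in bases from the annotated start (horizontal axis, negative upstream). Red boxes mark the nuclear receptor hexamer and the blue box the extended hexamer, and 14 windows have no hexamer.

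Patterns over the 5 arrays were compared by the root mean square difference of each gene's deviations from its own mean, on the log2 scale. Nearest to Nr5a2 were Stmn2 at 0.031, Bbs10 at 0.035 and Hmces at 0.037, where the deviations of Nr5a2 itself had a root mean square of 0.14. Nearest to Nr0b1 were Bhlhe40 at 0.014, Mras at 0.029 and Ric8b at 0.033, where Nr0b1 itself had 0.14. Bhlhe40 had log2 levels of 5.23, 5.28 and 5.28 on the induced arrays and 5.40 and 5.58 on the uninduced arrays, so uninduced array 2 was also its highest. Nr5a2 and Nr0b1 differed from each other by 0.098, and Nr0b1 ranked 513 among all other genes in nearness to Nr5a2. With 5 arrays, many genes come close by any such measure.

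The estrogen-related receptors gave no such separation. Esrrb, a core factor of the naive ES cell network that binds DNA as a monomer, had the same value, 8.26, on all 5 arrays. With the combined spread, the 95% interval of its change was -0.13 to 0.13, narrowed by its own spread of 0. Esrra, a regulator of mitochondrial energy genes, was at 5.28 on every induced array, between the uninduced arrays at 5.35 and 5.24. Its log2 change was -0.02 with a standard error of 0.038 (limma adjusted p = 0.897). Its sign depended on which uninduced array was kept: it was called higher by 0.03 without uninduced array 1 and lower, at -0.07, without uninduced array 2 (limma adjusted p = 0.0014 and 0.00036), in fits where the induced arrays, tied at 1 value, supply the whole spread. Over all genes these fits called 1097 lower and 883 higher without uninduced array 1, and 928 lower and 1051 higher without uninduced array 2.

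The receptors linked to leaving pluripotency had small differences. Nr6a1 encodes GCNF, which represses Pou5f1 when ES cells differentiate. It had log2 levels of 6.19, 6.19 and 6.21 on the induced arrays and 6.19 and 6.21 on the uninduced arrays, and the groups overlapped. Its log2 change was -0.0031 with a standard error of 0.011 (limma adjusted p = 1). Nr2f1 and Nr2f2 encode the COUP transcription factors, which appear in differentiating neural and mesenchymal cells. Nr2f1 was at 3.65 on all arrays except induced array 2, at 3.56. Nr2f2 was at 4.24 on all arrays except uninduced array 1, at 4.22. Their log2 changes of -0.03 and 0.0087 did not pass (limma adjusted p = 0.770 for both), and Nr2f2 passed without uninduced array 2, at 0.017, where the arrays left were tied within the induced group (limma adjusted p = 0.0053, in the fit that called 928 genes lower and 1051 higher). No detection call was used here, so whether these low values differ from background was not tested.

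Among the retinoid receptors, Rara and Rxrb had 1 value each on all 5 arrays, 6.15 and 5.80. Rara and Rarg encode receptors for retinoic acid, and Rxrb encodes a partner with which they bind DNA. Rarg had log2 levels of 6.29, 6.30 and 6.29 on the induced arrays and 6.12 and 6.29 on the uninduced arrays. The uninduced array 2 equalled induced arrays 1 and 3, so the groups overlapped and the difference came from uninduced array 1. The log2 change was 0.09 with a standard error of 0.058 (limma adjusted p = 0.770). It was 0.0037 without uninduced array 1 and 0.17 without uninduced array 2, where it passed (limma adjusted p = 0.0082) in a fit that called 928 genes lower and 1051 higher.

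Ties limit what these values can show. A single value on all 5 arrays was found for 3 of the 10 receptors (Esrrb, Rara and Rxrb) and for 15.1% of all genes, and 5 distinct values for 2 of the 10 (Nr5a2 and Nr0b1) and 9.03% of all genes. Some tied values were also shared with other probe sets: the 5.28 of Esrra occurred in 134 probe sets and the 4.24 of Nr2f2 in 253, both counts including the gene itself, while the 8.26 of Esrrb occurred in that probe set alone. Values counted as equal matched in every deposited digit. A tie in a summary of this kind does not show that the transcript was at the same level. The interval of ±0.13 given for Esrrb applies as well to Rara and Rxrb. In all 3 genes the tied values, with a spread of 0, still narrow that interval.

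Of 39 other nuclear receptor genes, 35 were measured, and 0 passed in either direction (limma), where 0.0150% of all genes did. At an unadjusted p under 0.05 (1.07% of all genes lower, 0.481% higher) there were 0 lower and 0 higher among these 35. Their means were lower in 13, higher in 11 and the same in 11, with a median log2 change of 0 and a range from -0.20 to 0.16. All induced values were above both uninduced values for Vdr, the vitamin D receptor gene, and Nr3c1, the glucocorticoid receptor gene, which is 2 of 35 against 1.65% of all genes, and below them for 0 genes, against 3.08%. Vdr had log2 levels of 3.89, 3.85 and 3.85 on the induced arrays and 3.82 and 3.80 on the uninduced arrays, and Nr3c1 had 5.40 on each induced array and 5.30 and 5.39 on the uninduced arrays. The thyroid hormone receptor gene Thrb had the lowest change, -0.20, with uninduced array 1 at 3.29 and uninduced array 2 equal to induced arrays 2 and 3 at 3.00. Nr2f6, of the COUP family, had a change of -0.07, and none of these passed (limma adjusted p = 0.770 for each).

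Coactivators and corepressors, the proteins through which receptors act on chromatin, were measured for 24 of 26 genes. Of these 0 passed (limma), where 0.0150% of all genes did. At an unadjusted p under 0.05 (1.07% of all genes lower, 0.481% higher) there were 0 lower and 0 higher among these 24. Their means were lower in 17, higher in 5 and the same in 2, with a median log2 change of -0.02. The smallest p-values were those of Ncoa4 at -0.04 and Pnrc2 at -0.07 in the lower direction, and of Ncoa3 at 0.08 and Gps2 at 0.09 in the higher direction. Ncoa3, a coactivator that ESRRB recruits in ES cells, was at 7.89 on all arrays except uninduced array 1, at 7.73.

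Genes of the retinoid pathway showed no call either (limma), where 0.0150% of all genes were called. At an unadjusted p under 0.05 both lists had 0 lower and 0 higher, against 1.07% and 0.481% of all genes. Of 19 measured genes of retinoid metabolism and transport, the mean was lower in 13, higher in 3 and equal in 3, with a median of -0.01. Stra6, a retinol transporter gene, had a log2 change of -0.07 and Dhrs4, a retinal reductase gene, -0.05. Aldh1a2, which makes retinoic acid, had 0.11. Cyp26a1, which degrades retinoic acid and is among its most sensitive targets, was at 4.31 on all arrays except uninduced array 1, at 4.17. Of 18 measured genes that respond to retinoic acid, the mean was lower in 6, higher in 9 and equal in 3, with a median of 0.0079. Zfp503 had a change of -0.12, Tgm2 of 0.06 and Gata6 of 0.08.

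The wider naive pluripotency network, in which Nr5a2, Nr0b1 and Esrrb work, had more genes below than above. Of 23 measured genes besides these receptors, the mean was lower in 20 and higher in 3, where 45.3% and 39.6% of all genes did, and the median log2 change was -0.05. The remaining 15.1% of all genes had equal means, as did 0 of the 23. A lower mean also prevailed among coactivators and corepressors (17 lower, 5 higher) and retinoid metabolism genes (13 and 3). It did not among retinoic acid response genes (6 lower, 9 higher). None of the 23 passed over all genes (limma), and at an unadjusted p under 0.05 there were 3 lower and 0 higher, against 1.07% and 0.481% of all genes. All induced values were below both uninduced values for 5 of the 23, which were Klf4, Tet2, Socs3, Tdgf1 and Jam2, with log2 changes of -0.35, -0.37, -0.14, -0.21 and -0.79, and above them for 0, against 3.08% and 1.65% of all genes. The list was written with earlier results known, and Jam2, an adhesion gene, was placed in it for its change. Tdgf1, the gene of the NODAL co-receptor CRIPTO, had log2 levels of 11.07, 11.09 and 11.01 on the induced arrays and 11.23 and 11.29 on the uninduced arrays. Klf4, a Kruppel-like factor of the naive state, had 6.73, 6.26 and 6.74 on the induced arrays and 6.95 and 6.91 on the uninduced arrays.

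The factors at the centre of that network had small mean changes. Pou5f1, the target of LRH-1 and GCNF named above, had log2 levels of 9.92, 9.93 and 9.96 on the induced arrays and 9.86 and 9.93 on the uninduced arrays, a change of 0.04. Nanog had a change of -0.06 and Sox2 of -0.0047. Dppa5a, an ES cell marker in the same list, had 0.06, and none of these 4 genes passed (limma adjusted p of 0.770 or higher).

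**Figure D4:**
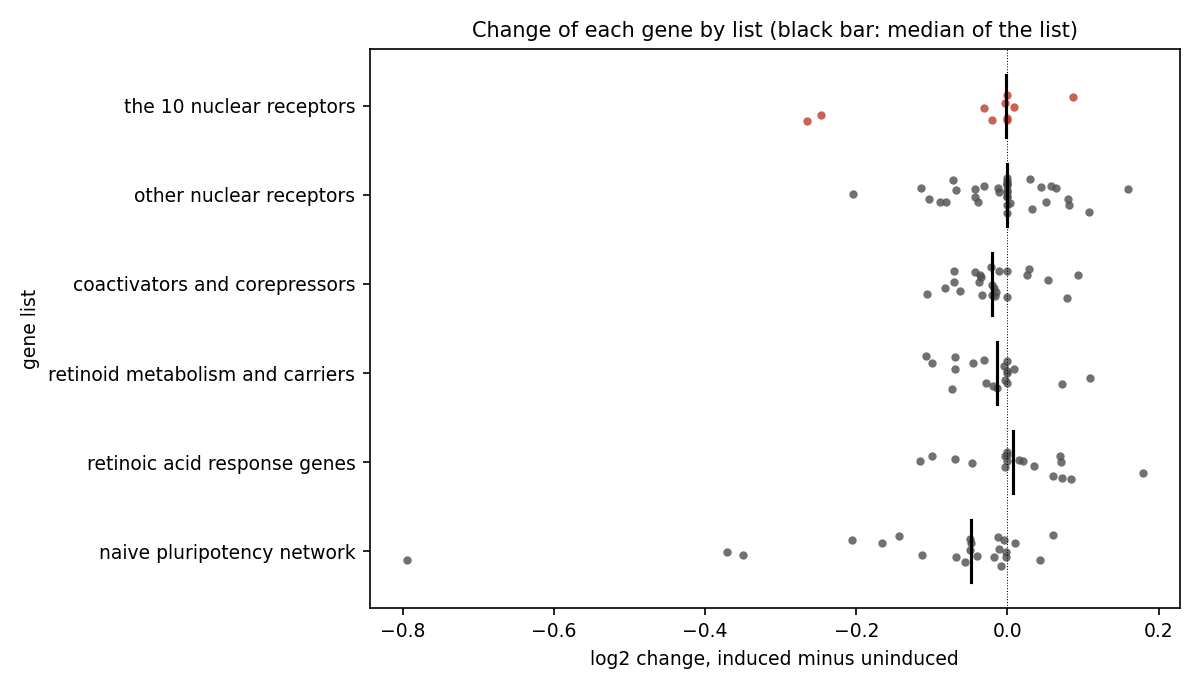
Log2 change (horizontal axis, induced minus uninduced) of each measured gene, by list, with the 10 nuclear receptors in red, other lists in grey and a black bar at each list's median. Nr5a2 and Nr0b1 lie near -0.25, below all 35 other nuclear receptor genes, and the medians of the 6 lists lie between -0.05 and 0.01.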

How the data were processed

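The authors deposited log2 values of 35557 probe sets on 5 arrays, summarised with RMA per the submitters' processing notes. Which software, probe grouping and build they used is not given in the sources used here. The array's annotation gave 21789 probe sets 1 gene symbol, which made 19938 genes. Groups came from the sample titles.

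All genes were fitted together with limma 3.58.1 (lmFit and eBayes) under R 4.3.3. P-values were adjusted by Benjamini-Hochberg across the 19938 genes, and 0.05 was the threshold. An exact permutation test of 3 against 2 arrays reaches 0.1 at best, so none was run. Low values were not filtered. The fits were tested on simulated data without ties, with a common spread for all genes and with larger changes than those of Nr5a2 and Nr0b1. That test therefore does not cover tied values or changes as small as these. Intervals also used limma's prior from the 1800 genes with 5 distinct values (prior SD 0.0859, against 0.00495 over all genes).

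The 10 genes, the lists and the alternatives were chosen with earlier results of these data known. Named genes were the 10 and Satb1, and per list the 2 with the smallest p in each direction, with Nanog, Klf4, Pou5f1 and Sox2, and the 3 nearest patterns for the 2 largest changes. Tet2 and Socs3 were named for their place in a count. Promoter sequences are from RefSeq, build GRCm38.p6.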

Additional observations from a re-analysis of the deposited data

How the results depend on the processing

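The alternatives were the mean of a gene's probe sets, genes above the median level (which leaves out Nr2f1 and Nr2f2), a second quantile normalization, median-centred arrays, a trended and robust eBayes, the prior of genes with 5 distinct values, only genes untied within both groups, a replicate block, the fibroblast mean as a covariate, an adjusted p threshold of 0.01, and each array left out. The number of the 10 receptors passing stayed at 0 lower and 0 higher in all of these except single arrays left out, where it ran from 0 to 1 lower and from 0 to 2 higher. Those calls came without an uninduced array, in fits that called 1097 genes lower and 883 higher (without array 1) or 928 lower and 1051 higher (without array 2), against 1 lower and 2 higher with all arrays, and in which the lone uninduced array is assumed to vary like the induced arrays. The change of Nr5a2 was negative in all 15 alternatives, from -0.30 to -0.19, as was that of Nr0b1, from -0.36 to -0.14. The median of the 10 genes lay between -0.0049 and 0 with 1 array left out, and was -0.26 with only untied genes, which leaves Nr5a2 and Nr0b1. Nr6a1 turned to 0.011 with quantile normalization and lay between -0.013 and 0.0067 with 1 array left out, and Esrra between -0.074 and 0.034. The Satb1 change of 3.55 (adjusted p = 0.229, limma) passed when only untied genes were tested and with the prior of genes with 5 distinct values, at 3.55 in both, and without uninduced array 1 or 2 (adjusted p = 0.0042 and 0.0034), and lay between 3.35 and 3.75 with 1 array left out.

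The title numbers do not show a pairing, as deviations of same-numbered arrays from their groups' means correlated at -0.0063 and 0.0063. With the number as a replicate block the changes were -0.23 for Nr5a2 and -0.26 for Nr0b1, with 0 of the 10 receptors passing and 0 genes called over all genes.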

Other observations

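Markers of other cell types that such cultures can hold gave no call (limma). The level of a list is given as the mean of the log2 values of its genes. For 9 measured neural progenitor markers it was 4.36, 4.39 and 4.49 on the induced arrays and 4.37 and 4.42 on the uninduced arrays. For 10 primitive endoderm markers it was 5.17, 5.14 and 5.19 on the induced arrays and 5.18 and 5.17 on the uninduced arrays. For 10 trophectoderm markers it was 5.71, 5.76 and 5.72 on the induced arrays and 5.73 on both uninduced arrays. The 2 groups overlapped in each of these lists. Single genes lay apart: Tfap2c, a trophectoderm and germline factor, was at 6.77, 6.72 and 6.77 on the induced arrays and 6.81 and 6.83 on the uninduced arrays, and 2 primitive endoderm genes lay apart in opposite directions. Gata6, a transcription factor gene, was at 4.88, 4.89 and 4.99 on the induced arrays and 4.85 and 4.82 on the uninduced arrays, while Lama1, a laminin gene, was at 6.82, 6.82 and 6.74 on the induced arrays and 6.89 and 6.88 on the uninduced arrays. None of these 3 passed (limma adjusted p = 0.770 for each). Induced values all below both uninduced values were thus found for 1 of 10 genes in each of these 2 lists, against 3.08% of all genes. Induced values all above them were found for 1 of 10 endoderm genes, against 1.65% of all genes. Neither separation occurred among the 9 neural genes. Among the fibroblast markers Lox, a collagen crosslinking enzyme, was at 4.59 on each induced array and 4.81 and 4.76 on the uninduced arrays (limma adjusted p = 0.697). It was the only 1 of the 23 measured fibroblast markers with all induced values below both uninduced values. All induced values were above them for 0 of the 23. Changes of the other marker genes with the smallest p-values were also small, and none passed (limma adjusted p = 0.770 for each). On the log2 scale they were -0.06 for Neurog2, -0.03 for Pax3, 0.04 for Fabp7 and 0.11 for Sox1 among neural genes, and -0.02 for Sox17 and 0.02 for Gata4 among endoderm genes. Trophectoderm genes had -0.16 for Ascl2, 0.10 for Eomes and 0.12 for Krt8. Fibroblast genes had -0.04 for Thy1, 0.03 for Col3a1 and 0.01 for Dcn, and the ES cell marker L1td1 had -0.07.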
